A study of Mus musculus with 35 samples.

Results

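The state of mouse embryonic fibroblasts (MEFs) 72 h after exposure to methyl methanesulfonate (MMS) was compared with that of control MEFs of the same time. The comparison used the arrays labelled as MMS and as control at 72 h, which are 7 of the 35 arrays of the series, 3 MMS arrays (replicates 1, 2 and 3) and 4 control arrays. All 14135 genes that passed a limit on low signal were members of it, of 18194 genes on the array, and the other 4059 stayed near the background of the arrays and were not tested. The cells were primary MEFs of C57BL6/J mice, taken at embryonic day 15.5 and grown for 2 passages per the labels, at 5% O2. The study's methods give a slightly earlier day and more passages. Before confluence the medium was replaced, for treated cells with fresh medium holding MMS at 40 μg/mL and for control cells with fresh medium alone. MMS 72 h replicate 4 was not analysed here. The 28 other arrays hold control cells at 0 h and both treatments at 1, 8 and 24 h. They served for the estimate of spread and, at 24 h, as the earlier point of comparison. Values at 8 h are given for mitosis and replication genes only.

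MMS is an alkylating agent that transfers methyl groups to DNA, and also to RNA and proteins. Alkylated bases stall replication forks and are removed by base excision repair or reversed directly, while blocked forks activate checkpoint kinases and p53, which restrain the cell cycle. MEFs are a mixed culture of mesenchymal cells that secrete collagens, elastic fibers and proteoglycans, divide for a few passages, and respond to fresh medium, serum and wounding with growth factor, prostaglandin and cytoskeletal genes.

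Values are log2 signals of RMA-normalized Affymetrix arrays, so a difference of 1 is a 2-fold difference and the level of a gene cannot be set against that of another gene. At an adjusted p under 0.05 (limma, Benjamini-Hochberg over all genes tested), 1426 genes were higher and 1469 lower in MMS-treated cells at 72 h, which is 10.1% and 10.4% of those tested. Of these, 99 were at least 2-fold higher (0.700%) and 193 at least 2-fold lower (1.37%). The median size of a called difference was 0.42 on the log2 scale, the median standard error of a difference was 0.11, and the median difference of all genes was -0.01. Because the labels name no separate cultures behind the replicates, the p-values reflect only how these samples varied, which may be technical, and precision is limited by how few arrays there are. In a bulk measurement, fewer cells of a type and less RNA per cell cannot be told apart.

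Replicate 3 of MMS at 72 h stood apart. The mean log2 level of 34 markers of intestinal epithelium was 5.70 in it, 4.30 and 4.25 in MMS replicates 1 and 2, and 4.26 to 4.35 in the control arrays. In it 18 of the 34 markers exceeded the rest of its group by over 1 log2 unit, and in every other 72 h array 0 of 34 did so. No intestinal marker passed the test at 72 h, and their median difference was 0.44. Without this array 1192 genes were higher (8.43%) and 1063 lower (7.52%), and 2158 of the 2895 called genes (74.5%) kept their call, with 0 changing sign. Of these, 1044 higher and 1016 lower genes had all MMS arrays on 1 side of all control arrays (7.39% and 7.19% of genes tested). With MMS replicate 1 or 2 left out instead, 2288 and 2320 of the 2895 called genes kept their call. Single genes given below as higher or lower kept their call without replicate 3 and had no overlap of arrays unless stated. Counts of list members at 72 h rest on the call alone. They are to be read against the 10.1% of all genes tested that were higher and the 10.4% that were lower. Where a count is 5 or fewer, members outside the naming rule were named after their values were seen. The 21 fibroblast markers had a mean level of 11.02 to 11.17 in the MMS arrays and 11.48 to 11.58 in the control arrays, and 10 of them were lower and 0 higher. Their part in the results below was not tested.

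Among the gene lists tested, cell division genes had the largest shift. Of 74 tested mitosis genes, 66 fell at 72 h and 0 rose, with or without MMS replicate 3, against 10.4% of all genes tested, and 42 of them fell at least 2-fold. In 62 of the 74 every MMS array lay below every control array, as in 15.3% of all genes. Their median difference was -1.05 on the log2 scale. Mki67, which encodes the proliferation antigen Ki-67 at the surface of mitotic chromosomes, had log2 levels of 9.32, 8.88, 8.96 and 9.05 in the control arrays and 6.90, 6.56 and 7.55 in the MMS arrays. All MMS arrays lay below all control arrays, with replicate 3 the least low. The fall was 4.14-fold (log2 difference -2.05, SE 0.16, adjusted p = 2.6e-11), and -2.32 without replicate 3.

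Cenpf, a large protein of the outer kinetochore, stood at 7.34, 7.12, 7.12 and 7.07 in control and at 5.12, 4.98 and 6.08 after MMS. Nuf2, a subunit of the NDC80 complex that binds spindle microtubules, stood at 7.75, 7.52, 7.57 and 7.51 in control and at 5.56, 5.49 and 6.45 after MMS. Ccna2 (cyclin A2) stood at 8.78, 8.53, 8.73 and 8.65 in control and at 6.61, 6.58 and 7.57 after MMS. In all 3 genes the groups did not overlap and replicate 3 lay about 1 log2 unit above the other MMS arrays, and the falls were 3.41-, 3.38- and 3.37-fold with adjusted p-values of 2.9e-09, 8.2e-11 and 1.8e-11. Replicate 3 was also the least low in the median difference from control over all tested mitosis genes. This median was -1.17 and -1.27 in MMS replicates 1 and 2 and -0.67 in replicate 3. The part of the intestinal transcripts of that array in this gap was not tested.

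DNA replication genes followed, with 44 of 57 tested members lower and a median difference of -0.60. The 1 member called higher was Rrm2, the small subunit of ribonucleotide reductase, whose arrays overlapped and which lost its call without replicate 3 (0.39 with it, 0.13 without it). Thymidine kinase Tk1, which salvages thymidine for DNA synthesis, had levels of 7.62, 7.85, 7.87 and 7.89 in control and of 6.04, 6.03 and 6.74 after MMS. Top2a, the topoisomerase of dividing cells, had levels of 9.49, 9.35, 9.41 and 9.51 in control and of 7.71, 7.82 and 8.55 after MMS. Both were lower in each MMS array, by 2.90-fold and 2.66-fold (adjusted p = 9.3e-11 and 1.7e-10). Mcm5, a subunit of the replicative helicase, fell 2.55-fold (SE 0.14 on the log2 scale, adjusted p = 7.3e-09), and Uhrf1, which carries DNA methylation across replication, fell 2.44-fold.

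Promoter sequences of these members are shown because many cell cycle genes carry short recognition elements near their start that are read by the DREAM and MuvB complexes, by NF-Y and by E2F factors. Sequences are from RefSeq (GRCm38.p6), 5′ to 3′ on the gene's strand, from 150 bases before to 30 after the annotated start, with motif matches on either strand in capitals. For Mki67, at chr7:135716350-135716529 (minus strand), and Cenpf, at chr1:189688057-189688236 (minus strand), the capitals mark TTTGAA (the cell cycle homology region, CHR) and CCAAT, which do not overlap each other. For Mcm5, at chr8:75109359-75109538 (plus strand), they mark the E2F site TTTCGCGC or TTTGGCGC.
Mki67: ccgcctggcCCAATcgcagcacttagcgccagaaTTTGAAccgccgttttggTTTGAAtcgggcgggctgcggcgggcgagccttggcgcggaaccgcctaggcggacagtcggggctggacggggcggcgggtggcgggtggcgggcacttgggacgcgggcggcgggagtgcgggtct
Cenpf: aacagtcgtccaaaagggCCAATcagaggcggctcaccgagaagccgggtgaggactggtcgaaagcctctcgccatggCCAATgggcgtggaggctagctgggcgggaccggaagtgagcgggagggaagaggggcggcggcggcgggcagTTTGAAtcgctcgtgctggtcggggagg
Mcm5: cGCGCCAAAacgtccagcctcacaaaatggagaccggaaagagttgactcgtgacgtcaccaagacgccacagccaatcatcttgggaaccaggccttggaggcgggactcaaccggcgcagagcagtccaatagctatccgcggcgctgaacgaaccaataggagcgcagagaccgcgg
In the window from 250 bases before to 50 after the start, TTTGAA was found in 34 of the 52 mitosis genes that fell and had a promoter in the table (65.4%), against 14.7% of all 11317 tested genes with a promoter. CCAAT was found in 37 of the 52 (71.2%, against 42.2%). The E2F letters were found in 11 of 36 replication genes that fell (30.6%, against 1.65%). Of the 3 members with the largest fall in each list, Nuf2, Tk1 and Top2a held no match to their list's letters in the printed stretch. A match is a description of letters and not evidence of binding.

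Genes that act in both repair and replication fell with them. In homologous recombination and the Fanconi pathway, 16 of 33 tested members fell and 0 rose (15 and 0 without replicate 3). Brca1 fell 1.90-fold, Rad54l 2.12-fold and the nuclease gene Exo1 2.06-fold, with adjusted p-values of at most 8.0e-06. Among 27 genes of base excision and direct alkylation repair, 8 fell and 2 rose, against 10.4% and 10.1% of all genes. Those that fell most were shared with replication or excise uracil from DNA: Lig1 (DNA ligase 1) at -0.90 on the log2 scale, Ung (uracil DNA glycosylase) at -0.84, Pcna, the sliding clamp, at -0.64 and Fen1, the flap endonuclease, at -0.55. The 2 that rose were Polb, the gap-filling polymerase of base excision repair, by 0.18 (SE 0.06), and Parp3 by 0.42 (SE 0.07).

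Among regulators of the G1 phase, more were lower than higher. Cdkn2b (p15INK4b), an inhibitor of CDK4 and CDK6, had log2 levels of 10.53, 10.41, 10.41 and 10.37 in control and of 11.23, 11.20 and 11.13 after MMS, with no overlap between the groups. It rose 1.70-fold (SE 0.07, adjusted p = 8.1e-10). Cdkn1a (p21), the CDK inhibitor that p53 induces, stood between 12.54 and 12.57 in control and at 13.34, 12.99 and 12.83 after MMS, a 1.41-fold rise. Rb1, the retinoblastoma protein gene, rose 2.19-fold (adjusted p = 2.5e-08). These were the 3 of 24 members that rose, close to the 10.1% of all genes, and 11 fell, against 10.4% of all genes. Among the latter were E2f7 (2.43-fold), an E2F repressor, and the cyclin E genes Ccne2 (1.97-fold) and Ccne1 (1.61-fold). Cdkn1c (p57), a CDK inhibitor as well, was among those that fell, by 1.49-fold.

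p53 target genes were higher as a group, with 24 of 45 tested members up and 3 down (20 and 2 without replicate 3) and a median difference of 0.30, against 10.1% of all genes tested that were higher. Pmaip1 (Noxa), a BH3-only protein that promotes apoptosis, had levels of 9.96, 10.02, 10.07 and 10.00 in control and of 11.30, 11.61 and 11.64 after MMS. It stood 2.84-fold higher (SE 0.09, adjusted p = 5.4e-13), with every MMS array over 1 log2 unit above every control array. Dgka, a diacylglycerol kinase, was 2.82-fold higher, with a larger standard error of 0.30 (adjusted p = 0.00036). Perp, a membrane protein of p53-dependent death and of desmosomes, had control levels of 8.75, 8.52, 8.67 and 8.58 and MMS levels of 9.74, 9.99 and 9.90 and was 2.38-fold higher. Gadd45a, whose product slows the cell cycle and is also induced by p53, went the other way, at 8.20, 8.26, 8.32 and 8.30 in control and 7.73, 7.91 and 7.77 after MMS (adjusted p = 0.012). The other 2 that fell, Plk2 (-0.28) and Cdkn2aipnl (-0.26), had arrays that overlapped, and Cdkn2aipnl lost its call without replicate 3.

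**Figure D1:**
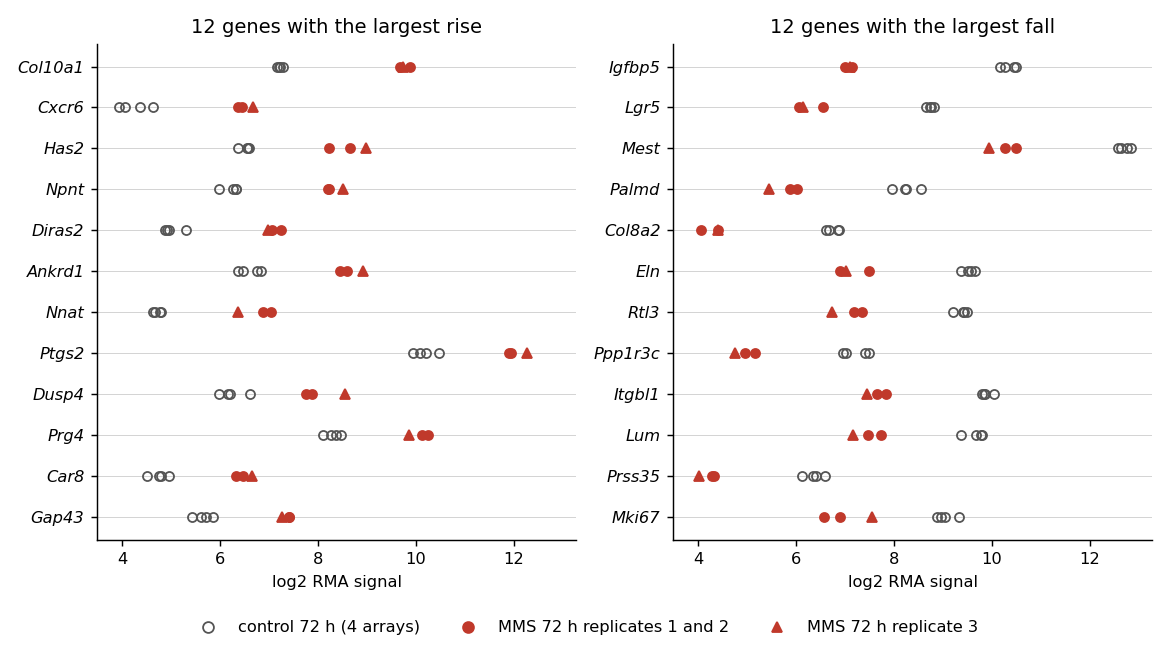
Log2 RMA signal (x axis) in each 72 h array for the 12 genes with the largest rise (left) and the 12 with the largest fall (right). They were chosen among genes that kept their call without MMS replicate 3 and had no overlap of the groups. Open grey circles are the 4 control arrays, red circles MMS replicates 1 and 2 and red triangles MMS replicate 3.

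The largest fall of any named gene was that of Igfbp5, a secreted binding protein of insulin-like growth factors (IGFs). Its levels were 10.50, 10.16, 10.46 and 10.28 in control and 6.99, 7.14 and 7.10 after MMS. The gap of 9.69-fold (SE 0.14, adjusted p = 2.3e-16) was nearly the same without replicate 3, at -3.29. Other binding proteins fell with it, Igfbp3 3.03-fold, Igfbp4 2.87-fold and Igfbp6 2.00-fold. Of 20 tested genes of the IGF axis, 10 fell and 1 rose, the latter Irs2, an adaptor of the insulin receptor (0.41, call lost without replicate 3). Both ligands were lower as well, Igf1 by a log2 difference of -0.58 and Igf2 of -0.62.

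Among matrix genes, elastin (Eln), the core of elastic fibers, stood at 9.66, 9.36, 9.58 and 9.51 in control and at 7.48, 6.89 and 7.01 after MMS. The groups were far apart and the fall was 5.27-fold (adjusted p = 1.4e-11). Fbn2, a fibrillin of microfibrils, fell 2.87-fold and Fbln5, which organizes elastin, 2.17-fold. Of 22 tested elastic fiber and crosslinking genes, 9 fell and 4 rose (7 and 4 without replicate 3), and those that rose were Ecm1 (1.92-fold), Emilin2 (1.64-fold), the lysyl oxidase Loxl3 (1.35-fold) and Ltbp1 (call lost without replicate 3).

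Among small leucine-rich proteoglycans, which bind collagen fibrils and set their spacing, lumican (Lum) had levels of 9.80, 9.36, 9.78 and 9.68 in control and of 7.47, 7.74 and 7.16 after MMS. Decorin (Dcn) had levels of 9.51, 9.33, 9.70 and 9.46 in control and of 7.96, 8.03 and 7.67 after MMS. Both were lower in all MMS arrays, 4.59-fold and 3.05-fold (adjusted p = 8.7e-11 and 3.6e-12). Fibromodulin (Fmod) fell 2.54-fold and the matricellular gene Ccn3 3.13-fold. In the whole list of proteoglycans, hyaluronan and adhesive matrix, 22 of 48 tested members fell and 6 rose, and without replicate 3 these counts were 16 and 6.

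Collagen chains did not move as 1 group. Of 27 tested chains, 11 fell and 3 rose (Col10a1, Col7a1 and, with overlapping arrays, Col4a5), and the main fibril chains Col1a1, Col1a2 and Col3a1 were not past the threshold at -0.22, -0.16 and -0.47 (adjusted p = 0.15, 0.26 and 0.11). Col8a2, a chain of network collagen VIII, had levels of 6.87, 6.68, 6.60 and 6.86 in control and of 4.41, 4.05 and 4.40 after MMS, a fall of 5.53-fold that brought it to the limit of 4.40 below which genes were not tested. Col14a1 fell 2.44-fold, Col11a1 1.98-fold and Col6a2 1.63-fold. Against these, Col10a1, the network collagen of hypertrophic cartilage, had levels of 7.28, 7.23, 7.20 and 7.17 in control and of 9.88, 9.67 and 9.74 after MMS. This was the largest rise among genes that kept their call without replicate 3, 5.83-fold with SE 0.10 and adjusted p = 2.1e-17. Of 9 tested markers of chondrocytes and osteoblasts, Col10a1 alone rose and Comp, a cartilage matrix protein, alone fell (2.47-fold), and the mean level of the whole list of 13 was 5.02 to 5.05 in MMS and 4.99 to 5.07 in control arrays.

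The remaining genes with the largest falls were of several kinds. Lgr5, a receptor for R-spondins, fell 5.64-fold, from 8.65, 8.76, 8.74 and 8.81 to 6.55, 6.05 and 6.14. Mest, an imprinted gene expressed from the paternal allele, fell 5.59-fold, from 12.84, 12.58, 12.77 and 12.65 to 10.49, 10.26 and 9.94. Palmd (5.54-fold), Rtl3 (4.89-fold), Ppp1r3c, which targets a phosphatase to glycogen (4.79-fold), Itgbl1 (4.73-fold) and Prss35 completed the list of 12. Prss35 had levels of 6.58, 6.12, 6.40 and 6.35 in control and of 4.27, 4.31 and 4.01 after MMS, all 3 of the latter under the limit of 4.40, so its measured fall of 4.49-fold may understate the difference and its rank is uncertain. By the rule that chose them, none of these genes had an MMS array that reached a control array. Among Wnt pathway genes 11 of 34 fell and 4 rose, the latter close to the 10.1% of all genes. The R-spondin Rspo2, a ligand of LGR receptors, was 2.75-fold lower. The receptors Ror1 and Fzd4 were 2.86- and 2.32-fold lower and the secreted inhibitor Sfrp1 2.36-fold lower. Axin2, Wnt9a, Wnt4 and Wnt5a were 1.91-, 1.83-, 1.63- and 1.47-fold higher.

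Proteases of the matrix also went both ways, with 13 of 34 tested members lower and 7 higher. The aggrecanases Adamts1 and Adamts5 fell 2.71-fold and 2.22-fold, and Serpinf1, an anti-angiogenic serpin, fell 2.17-fold (adjusted p = 2.3e-13). Plaur, the receptor of urokinase, had levels of 7.69, 7.68, 7.49 and 7.60 in control and of 8.43, 8.63 and 9.16 after MMS, highest in replicate 3. It rose 2.19-fold with replicate 3, and its log2 difference was 1.13 with that array and 0.92 without it. Serpinb2, an inhibitor of urokinase that was under the limit for testing in all control arrays, was 2.21-fold higher, and stromelysin 1 (Mmp3) 1.59-fold higher.

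Among the largest rises were genes of hyaluronan and prostaglandin synthesis. Has2, which makes hyaluronan, stood at 6.60, 6.56, 6.55 and 6.37 in control and at 8.23, 8.65 and 8.98 after MMS. Ptgs2 (COX-2), the inducible enzyme of prostaglandin synthesis, stood at 10.47, 10.21, 9.95 and 10.08 in control and at 11.95, 11.91 and 12.28 after MMS. In both genes every MMS array was above every control array with replicate 3 the highest, and the rises were 4.28-fold and 3.65-fold (adjusted p = 6.1e-14 and 9.7e-13). The hyaluronan receptor gene Cd44 rose 1.77-fold and Pla2g4a, which releases arachidonic acid for prostaglandins, 1.56-fold. Of 21 prostaglandin genes 6 rose and 3 fell: prostacyclin synthase (Ptgis) 2.03-fold, the receptor gene Ptgfr 2.53-fold, and Pla2g2e, which lost its call without replicate 3.

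Of 38 tested cytokine and chemokine genes, 11 rose, against 10.1% of all genes, and 4 fell, close to the 10.4% of all genes. Il6 had levels of 5.05, 4.60, 5.14 and 5.21 in control and of 6.44, 6.34 and 6.29 after MMS, and Hbegf, a ligand of the EGF receptor, had levels of 8.32, 8.81, 8.78 and 8.80 in control and of 10.30, 9.95 and 10.37 after MMS. They rose 2.56-fold and 2.89-fold (adjusted p = 3.5e-09 and 1.1e-12). Ccl2, which attracts monocytes, rose 1.90-fold. Cxcl12 (2.28-fold), Cxcl15 (2.30-fold), the interleukin 1 receptor antagonist Il1rn (2.11-fold) and the growth factor Hgf (call lost without replicate 3) were lower. Cxcr6, a chemokine receptor, had levels of 3.93, 4.05, 4.37 and 4.62 in control, at or near the limit for testing, and of 6.44, 6.36 and 6.68 after MMS, a 4.75-fold difference.

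Immediate early genes, which serum and stress induce through MAP kinases, were higher in 16 of 32 tested cases and lower in 2 (15 and 2 without replicate 3). Dusp4, a phosphatase that dampens ERK signaling, stood at 6.20, 5.97, 6.17 and 6.61 in control and at 7.75, 7.88 and 8.56 after MMS, a 3.55-fold rise. Fosl1 (Fra-1), an AP-1 subunit, rose 2.57-fold and Ier3 2.39-fold, whereas Fos itself was at -0.21 (adjusted p = 0.75) and Egr1 and Klf2 fell 1.35-fold and 1.92-fold. Of 38 TGF-β and BMP pathway genes, 15 rose and 8 fell (12 and 4 without replicate 3). The activin subunit genes Inhba (2.57-fold) and Inhbb (2.24-fold) rose most, the BMP target genes Id1 and Id2 rose 1.75-fold and 1.80-fold, and Bmp4 fell 2.04-fold.

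Contractile genes and targets of the SRF and YAP coactivators were higher in 27 of 41 tested cases and lower in 2 (25 and 1 without replicate 3), with a median difference of 0.29. Ankrd1, a YAP target that binds titin in muscle, had levels of 6.84, 6.76, 6.37 and 6.46 in control and of 8.46, 8.59 and 8.93 after MMS, and rose 4.14-fold. Acta1, skeletal muscle actin, had levels of 8.44, 8.61, 8.54 and 8.59 in control and of 9.87, 9.54 and 9.81 after MMS, and rose 2.29-fold. Smooth muscle genes rose too, the myosin Myh11 2.67-fold and the actin Actg2 2.30-fold, and in all 4 genes the groups did not overlap. Acta2, the actin by which myofibroblasts are usually recognized, was not past the threshold at 0.19 (adjusted p = 0.19). Myh10, a nonmuscle myosin, fell 1.43-fold, and the integrin gene Itgb5 (-0.33) lost its call without replicate 3. Of 17 tested skeletal muscle markers 3 were higher (Acta1, Actc1 and Myh2), and the mean of all 30 was 4.39 to 4.41 in the MMS arrays and 4.34 to 4.36 in the control arrays. The promoters of Ankrd1, at chr19:36119815-36119994 (minus strand), and Acta1, at chr8:123894746-123894925 (minus strand), are shown as those with the largest rise among members with a promoter in the table, with the TEAD site CATTCC (MCAT) in capitals on either strand.
Ankrd1: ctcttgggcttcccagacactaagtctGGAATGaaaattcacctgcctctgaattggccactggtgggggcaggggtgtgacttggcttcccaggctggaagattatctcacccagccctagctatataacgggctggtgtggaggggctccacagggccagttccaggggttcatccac
Acta1: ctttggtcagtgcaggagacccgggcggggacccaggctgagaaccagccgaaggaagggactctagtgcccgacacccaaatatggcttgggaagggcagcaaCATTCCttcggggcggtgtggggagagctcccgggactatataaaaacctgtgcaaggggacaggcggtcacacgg
These letters were found in 9 of the 23 members that rose and had a promoter in the table (39.1%), against 14.9% of all promoters, and Cnn1 held none in its printed stretch.

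**Figure D2:**
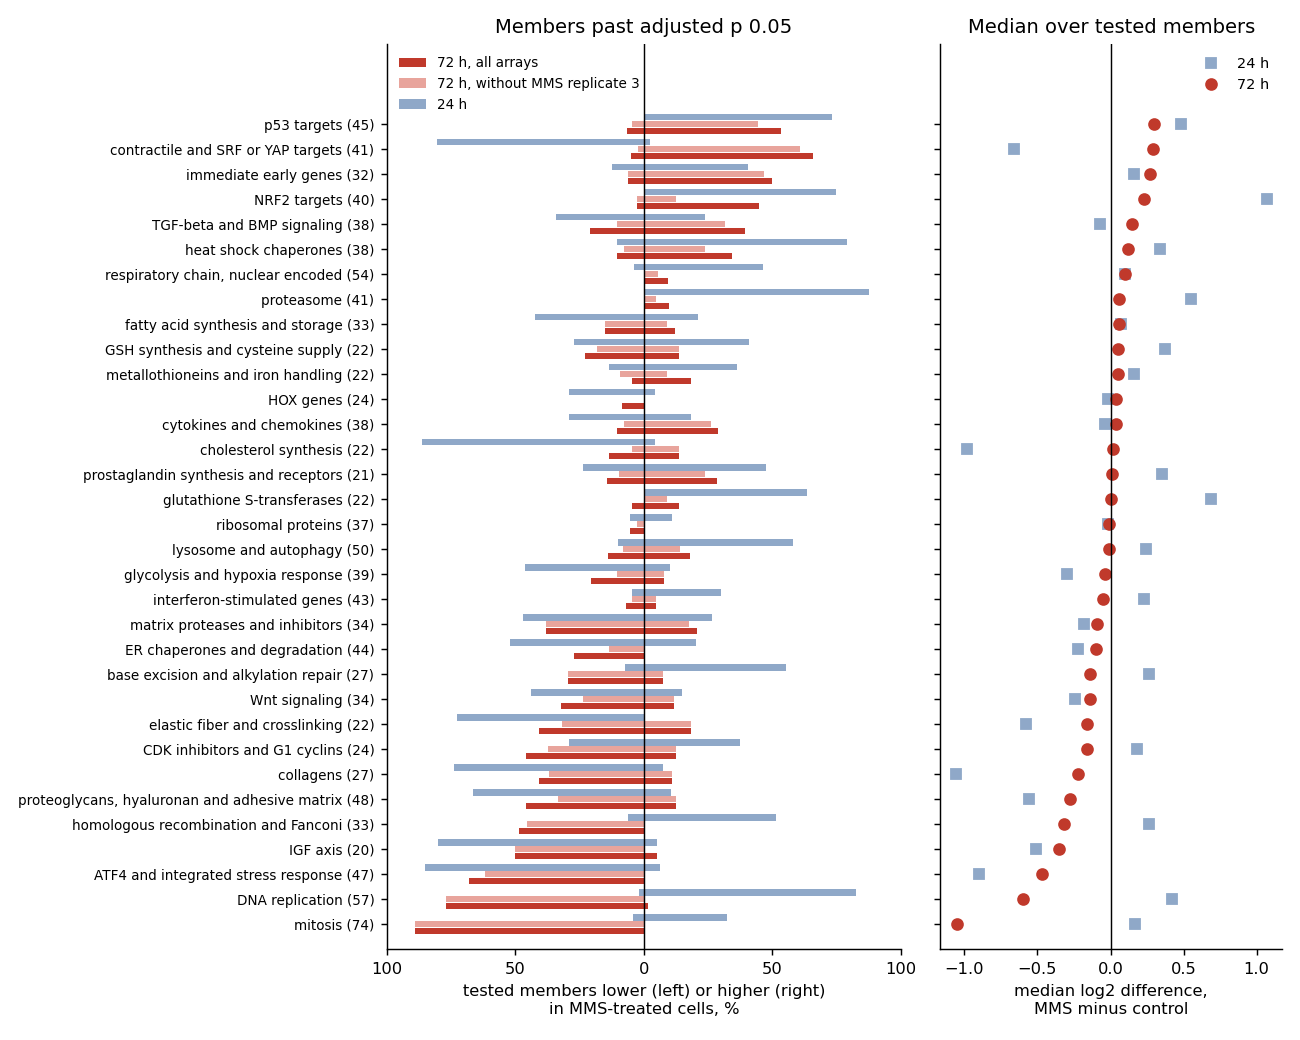
Left, share of tested members (x axis, in %) of each gene list with at least 20 tested members that were higher (to the right) or lower (to the left) in MMS-treated cells at an adjusted p under 0.05, at 72 h with all arrays, at 72 h without MMS replicate 3, and at 24 h, with the number of tested members in brackets. Right, median log2 difference of the tested members at 24 h and 72 h, where mitosis lies at 0.17 and -1.05 and the contractile list at -0.66 and 0.29.

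The amino acid response was low. ATF4 is the transcription factor of the integrated stress response and induces amino acid transporters, synthesis enzymes and tRNA synthetases. Of 47 tested genes of this program, 32 were lower and 0 higher at 72 h (29 and 0 without replicate 3), with a median difference of -0.47. The cationic amino acid transporter gene Slc7a3 stood at 7.48, 7.21, 7.35 and 7.32 in control and at 6.07, 5.71 and 5.50 after MMS. Trib3, a pseudokinase induced by ATF4 and CHOP, stood at 9.95, 9.55, 9.63 and 9.54 in control and at 8.29, 8.41 and 8.28 after MMS. Neither gene had overlapping groups, and the falls were 3.00-fold and 2.54-fold (adjusted p = 8.8e-11 and 2.8e-10). The leucine transporter gene Slc7a5 fell 2.47-fold, and Psat1, of serine synthesis, 2.18-fold with an SE of only 0.07 on the log2 scale. Atf4 itself was at -0.27 (adjusted p = 0.0049) and Ddit3 (CHOP) at -0.49. The promoter of Trib3, at chr2:152344031-152344210 (minus strand), is shown with the C/EBP-ATF response element TGATGNAAN in capitals, here on the opposite strand.
Trib3: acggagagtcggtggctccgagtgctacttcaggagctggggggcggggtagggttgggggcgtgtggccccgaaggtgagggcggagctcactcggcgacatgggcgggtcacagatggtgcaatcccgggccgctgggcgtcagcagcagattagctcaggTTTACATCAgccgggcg
This element was found in 11 of the 28 members that fell and had a promoter in the table (39.3%), against 2.76% of all promoters. Psat1 and Gpt2, which follow Trib3 in size of fall among members with a promoter, held none in the printed stretch.

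Chaperones of the endoplasmic reticulum differed little. Of 44 tested genes of ER folding and degradation, 12 were lower and 0 higher, but 6 and 0 without replicate 3. The median difference was -0.10 with that array and -0.09 without it. Herpud1, of ER-associated degradation, fell 1.58-fold and Hspa5 (BiP), the main ER chaperone, 1.26-fold. Hspa5 stood at 13.28, 13.18, 13.16 and 13.19 in control and at 12.88, 12.86 and 12.87 after MMS, a small difference with little spread. Of 38 cytosolic and mitochondrial heat shock chaperones, 13 were higher and 4 lower, among the former the small heat shock genes Hspb1 (1.50-fold) and Cryab (1.44-fold) and Hspa1a (1.41-fold), while Hspa9, the HSP70 of mitochondria, fell 1.34-fold and Hsph1, an HSP110, 1.24-fold.

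NRF2 binds antioxidant response elements in genes of detoxification, and the number of its targets called here depended on replicate 3. Of 40 tested targets 18 were higher and 1 lower with all arrays, and 5 were higher and 1 lower without that array. The median over the list lay 0.20, 0.11 and 0.46 above control in MMS replicates 1, 2 and 3. Over all MMS arrays the median difference was 0.23, and without replicate 3 it was 0.18. Nqo1, a quinone reductase, had levels of 6.15, 6.09, 6.18 and 6.31 in control and of 6.46, 6.67 and 7.80 after MMS. Its difference of 0.80 (adjusted p = 0.0044) was 0.38 without replicate 3 (adjusted p = 0.13). Gsta4, which conjugates glutathione to lipid aldehydes, had levels of 7.59, 7.41, 7.52 and 7.62 in control and of 8.20, 8.05 and 9.36 after MMS, and its difference of 1.00 was 0.59 without replicate 3 (adjusted p = 0.24). In both genes the groups did not overlap, but replicate 3 was more than 1 log2 unit above the other MMS arrays.

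The 5 NRF2 targets still higher without replicate 3 were Gclc, Aox1, Cbr3, Akr1b8 and Pgd. Gclc, the catalytic subunit of the enzyme that starts glutathione synthesis, had levels of 8.37, 8.29, 8.45 and 8.50 in control and of 9.70, 9.53 and 9.77 after MMS. It was 2.40-fold higher, and its replicate 3 did not stand apart. Gss, the enzyme of the last step, was 1.58-fold higher (adjusted p = 2.7e-10), with 8.58, 8.48, 8.39 and 8.52 in control and 9.17, 9.10 and 9.19 after MMS. Aldehyde oxidase Aox1 was 1.92-fold, Cbr3 1.51-fold and Akr1b8 1.48-fold higher, Pgd, of the pentose phosphate pathway, was at 0.39, and Blvra, biliverdin reductase A, was the 1 target that fell (1.25-fold). Of 22 genes of glutathione synthesis and cysteine supply, 3 rose (Gclc, Gss and Gclm, the last losing its call without replicate 3) and 5 fell, the amino acid transporter genes Slc1a5 (1.72-fold), Slc3a2 (1.39-fold) and Slc1a4 (call lost without replicate 3), Cth, which makes cysteine from cystathionine (1.67-fold), and Chac1, which degrades glutathione.

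The calls in 4 other lists are read against the 10.1% of all genes that were higher and the 10.4% that were lower. Of 41 proteasome genes 4 were higher, close to the share of all genes, and 0 lower, Psma2 at 0.28, Psmd8 at 0.20, and Psma7 and Psmb7, which lost their calls without replicate 3. Of 37 ribosomal protein genes 0 were higher and 2 lower (Rpl10a, and Rpsa with its call lost without replicate 3). Of 43 interferon-stimulated genes 2 were higher, Irgm1 (1.41-fold) and Ifitm3 (1.33-fold), and 3 lower, Ifit2, Ifit3 (overlapping arrays) and Bst2 (call lost without replicate 3). Cholesterol synthesis genes moved both ways near the share of all genes, higher in 3 of 22 cases (Msmo1 at 0.47, Hsd17b7 at 0.28 and Nsdhl at 0.18) and lower in 3 (Srebf2, and Cyp51 and Mvd with calls lost without replicate 3).

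The 72 h state was then set against that at 24 h, which used other control arrays. At 24 h, 3540 genes were higher (25.0%) and 2745 lower (19.4%) in MMS-treated cells. Genes higher at both times numbered 791, which is 22.3% of those higher at 24 h and 55.5% of those higher at 72 h, and genes lower at both times 752 (27.4% and 51.2%). A further 226 genes were higher at 24 h and lower at 72 h, and 239 were lower and then higher. The 226 are 6.38% of genes higher at 24 h, against 10.4% of all genes tested that were lower at 72 h. The 239 are 8.71% of genes lower at 24 h, against 10.1% of all genes tested that were higher at 72 h. For all of these 226 and 239 genes the difference between the effects was past the threshold, which calls in opposite directions nearly ensure. Over all genes the effect at 72 h was above that at 24 h in 1759 (12.4%) and below it in 2339 (16.5%). With each array centred on its median this balance turned, to 2265 above and 1525 below. MMS replicate 3 at 24 h also held intestinal transcripts, and without the 4 arrays of the series that held most of them these counts were 1905 and 2411.

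Mitosis and replication genes were mostly lower at 72 h and not at 24 h. The fall at 72 h was not the first, since at 8 h the median log2 difference was -0.59 for mitosis genes. For replication genes it was -0.13 at 8 h. At 24 h, 24 of 74 mitosis genes were higher and 3 lower, against 25.0% and 19.4% of all genes. In 68 of them the effect at 72 h was below that at 24 h, against 16.5% of all genes. In replication, 47 of 57 were higher at 24 h and 50 had a lower effect at 72 h. Mki67 stood at mean levels of 10.20 in control and 10.14 after MMS at 24 h (adjusted p = 0.78), above its levels in every array at 72 h. Mcm5 was at 9.77 in control and 10.36 after MMS at 24 h, and the change of its effect was -1.94 (SE 0.19, adjusted p = 2.1e-09). Brca1 changed in the same way, with a log2 difference of 0.82 at 24 h and -0.93 at 72 h.

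**Figure D3:**
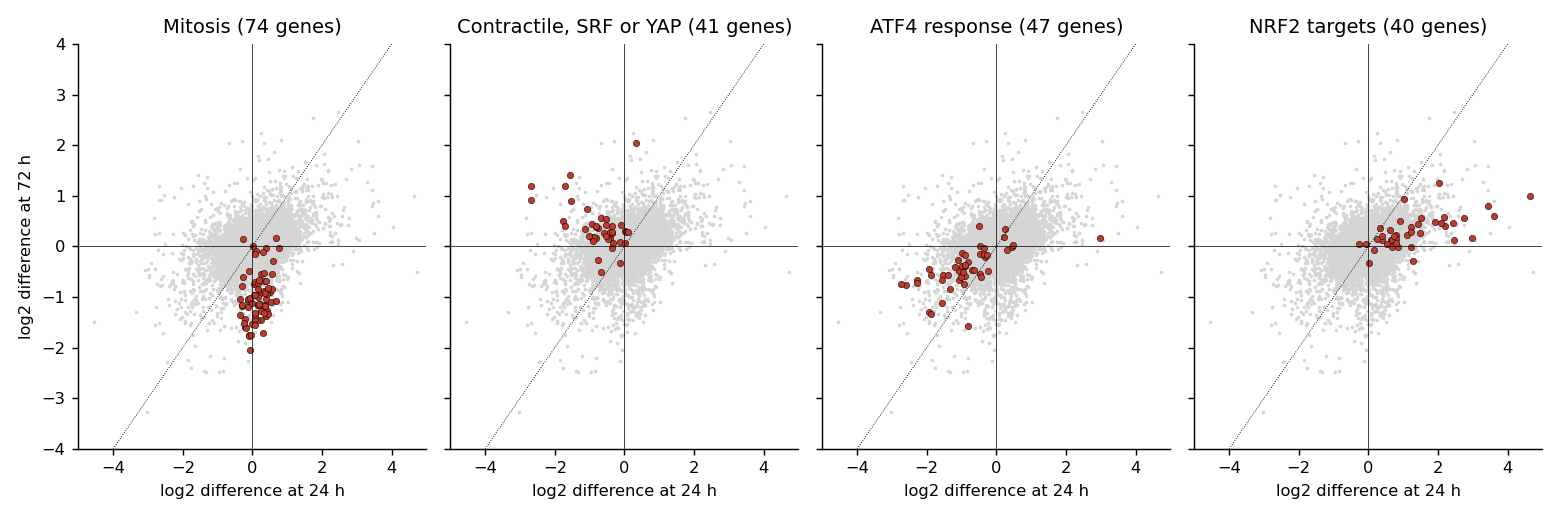
Log2 difference between MMS-treated and control cells at 24 h (x axis) and at 72 h (y axis) for all 14135 genes (grey) and the tested members of 4 lists (red), with the line of equality dotted. The 74 mitosis genes lie mostly below 0 at 72 h and near 0 at 24 h, the 41 contractile genes mostly above 0 at 72 h and below 0 at 24 h, the 47 ATF4 genes mostly below 0 at both times and the 40 NRF2 targets mostly above 0 at 24 h and nearer to it at 72 h.

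Contractile genes went the opposite way, with 33 of 41 lower and 1 higher at 24 h, and 36 with a higher effect at 72 h, against 12.4% of all genes. Among genes called at 72 h, Actg2 differed most between the times. Its mean level was 11.11 in control and 8.44 after MMS at 24 h and 10.25 and 11.45 at 72 h, a change of the effect of 3.87 (adjusted p = 2.3e-15). Calponin 1 (Cnn1), an actin-binding protein of smooth muscle, followed with 3.58, Lrrc17 with 3.55, the chemokine Cxcl14 with 3.55, Ctnnd2, a neuronal catenin, with 3.40 and Gabrb1, a subunit of the GABA receptor, with 3.24. All 6 were lower at 24 h and higher at 72 h, and without MMS 72 h replicate 3 their changes were 3.19 to 3.95.

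In several lists that were low at 24 h the gap to control was smaller at 72 h. ATF4 genes were lower in 40 of 47 cases at 24 h, with a median of -0.90 that stood at -0.47 at 72 h, and 29 had a higher effect at 72 h. Collagens had a median of -1.06 at 24 h and -0.22 at 72 h, and 18 of 27 had a higher effect at 72 h. Col6a2, which was at -2.02 at 24 h, was at -0.71 at 72 h. Cholesterol synthesis had 19 of 22 genes lower at 24 h, 3 at 72 h, and 19 with a higher effect. In contrast, the effect on Lum was more negative at 72 h, where its level in control cells was higher than at 24 h. It had mean levels of 5.83 in control and 5.00 after MMS at 24 h, and of 9.66 and 7.46 at 72 h. Col8a2 stood at 4.62 and 3.78 at 24 h and at 6.75 and 4.28 at 72 h, and since its MMS means lay under the limit of 4.40 at both times and its control mean at 24 h just above it, its effects cannot be compared. Igfbp5 was at 8.34 and 5.32 at 24 h and at 10.35 and 7.07 at 72 h, where its effect did not differ past the threshold from that at 24 h (adjusted p = 0.37).

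Several of the genes that stood higher at 72 h had lower levels in both treatments than at 24 h. Has2 had mean levels of 9.37 in control and 10.20 after MMS at 24 h, and of 6.52 and 8.62 at 72 h. Ptgs2 had mean levels of 12.24 and 12.86 at 24 h and of 10.18 and 12.05 at 72 h. Their log2 differences of 0.83 and 0.62 at 24 h were thus smaller than those of 2.10 and 1.87 at 72 h, with changes of 1.27 and 1.25 (adjusted p = 3.2e-07 and 4.4e-07). Inhba was at 12.25 and 12.32 at 24 h, not past the threshold, and at 10.68 and 12.04 at 72 h, and the change of its effect was 1.28. Il6 had another course, with mean levels of 5.53 in control and 5.38 after MMS at 24 h and of 5.00 and 6.36 at 72 h, lower in control and higher after MMS, and its effect changed by 1.50 (adjusted p = 1.2e-07).

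**Figure D4:**
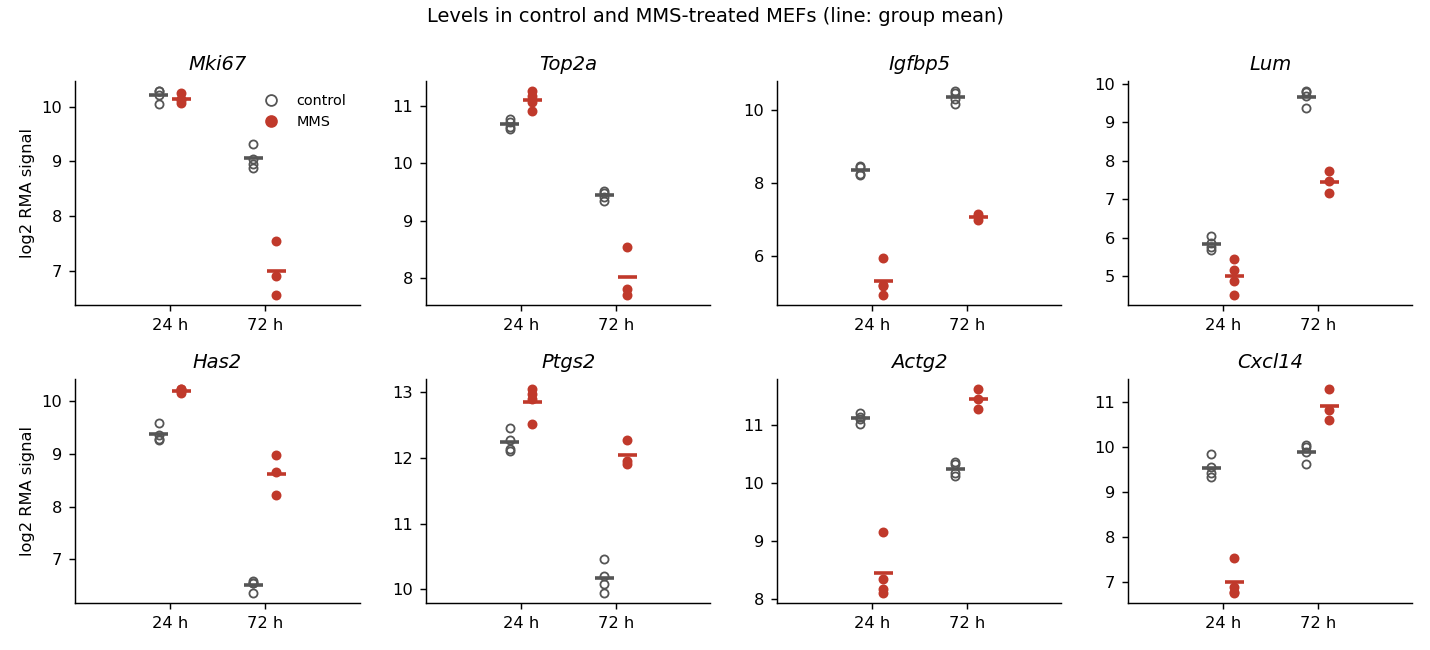
Log2 RMA signal (y axis, a scale of its own for each gene, not starting at 0) of 8 genes in each control array (open grey circles) and MMS array (red circles) at 24 h and 72 h, with a line at each group mean. Mki67 and Top2a were below control at 72 h and not at 24 h, Igfbp5 and Lum were below control at both, Has2 and Ptgs2 were above control at both with lower levels at 72 h, and Actg2 and Cxcl14 were below control at 24 h and above it at 72 h.

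Targets of NRF2 had smaller differences from control at 72 h than at 24 h. They had a median of 1.07 at 24 h and 0.23 at 72 h, with 30 of 40 higher at 24 h and 26 with a lower effect at 72 h, and proteasome genes a median of 0.55 and 0.06, with 36 of 41 higher at 24 h. Gsta4 had mean levels of 7.24 in control and 11.88 after MMS at 24 h, and its effect changed by -3.63 on the log2 scale. The effect on Blvrb, biliverdin reductase B, changed by -3.01 and that on Nqo1 by -2.64, and without MMS 72 h replicate 3 these were -3.30 and -3.05. Blvrb was called higher at 72 h with overlapping arrays (0.60) and lost that call without replicate 3. The receptor gene Tnfrsf18 (-2.72), the lysosomal marker Cd68 (-2.58) and Procr, the protein C receptor (-2.32), completed the 6 largest changes in this direction. Procr was still 2.15-fold higher at 72 h, at 8.96, 8.95 and 9.61 against 8.14, 7.98, 8.09 and 8.06 in control, and Cd68, though a macrophage marker, was higher at 72 h with Cd14 (call lost without replicate 3), while the mean of 21 macrophage markers was 4.31 to 4.37 in MMS and 4.31 to 4.39 in control arrays. Of the 318 genes at least 2-fold higher at 24 h, 259 had a smaller effect at 72 h, against 16.5% of all genes. Of the 420 at least 2-fold lower, 374 had a higher one, against 12.4% of all genes. These genes were chosen by the 24 h effect that the change subtracts, so a move towards 0 is partly built in.

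Of the p53 targets, which were higher in 33 of 45 cases at 24 h, 14 had a lower effect at 72 h and 1 a higher one. The latter was Pmaip1, at a log2 difference of 0.75 at 24 h and 1.51 at 72 h (change 0.75, adjusted p = 2.7e-05). Cdkn2b was at 10.34 in control and 10.17 after MMS at 24 h, lower by a small margin, and higher at 72 h, with a change of 0.93 (adjusted p = 4.9e-09). For Cdkn1a, at 0.36 and 0.50, the change of 0.14 was not past the threshold (adjusted p = 0.41).

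The largest rise that lost its call without replicate 3 was that of Dsp (desmoplakin), which anchors keratins at desmosomes. Its levels were 4.93, 4.61, 4.49 and 4.41 in control and 6.79, 7.46 and 7.56 after MMS, so all 3 MMS arrays were above all control arrays. The difference of 2.66 (adjusted p = 0.022) had an SE of 0.84 over all groups of the series, and without replicate 3 it was 2.51 with an adjusted p of 0.080. Of 11 tested keratinocyte markers, 3 were higher, Dsp, Perp and Sfn, and the median difference of the 11 was 0.05. The mean over all 17 was 4.85 to 5.00 in the MMS and 4.60 to 4.65 in the control arrays. Cgref1, Zbed6, Plek2, Nppb and Tnfrsf11b, at 0.91, 0.90, 0.78, 0.76 and 0.75, lost their call as well, with adjusted p-values of 0.053 to 0.13 without replicate 3, and the arrays of Nppb and Tnfrsf11b overlapped. Gap43, a growth cone protein, rose 3.26-fold from 5.72, 5.43, 5.60 and 5.86 to 7.40, 7.41 and 7.27, and among 10 tested neural and Schwann markers it and Stmn2 were higher and Map2 lower. Diras2, a small GTPase (4.25-fold), Nnat (4.14-fold), the matrix protein nephronectin, Npnt (4.26-fold), Prg4 (lubricin, 3.44-fold) and Car8 (3.32-fold) were the others among the 12 largest rises. By the rule that chose them, these genes kept their calls without replicate 3.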

How the data were processed

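RNA of MEFs was measured on 35 Affymetrix mouse expression arrays. Per the submitters' processing notes, the authors normalized the probe signals by RMA and deposited log2 values for 45101 probe sets, with array medians of 4.98 to 5.09. The version of RMA is not given in the sources used here. Of the probe sets 34958 had 1 gene symbol, 932 several and 9211 none, and those with 1 symbol were used, taking for each gene the brightest probe set on average. Genes were tested if their mean in any group was at least log2 4.40, the 40th percentile of the data, 14135 of 18194.

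All 9 groups were fitted together in limma 3.58.1 (R 4.3.3) with lmFit and eBayes on 26 residual degrees of freedom. MMS was contrasted with control at 72, 24 and 8 h, and the effects at 72 h and 24 h with each other. Benjamini-Hochberg adjusted p-values under 0.05 over all genes tested were called. On simulated data with 200 of 14135 genes changed at 72 h, over 20 draws, 76.8% of 1.5-fold and 94.8% of 2-fold changes were recovered, and 5.56% of calls were false. The draws used independent normal noise with 1 SD per gene, and no array stood apart. In the real data 20.5% of genes were called, so these rates check the fit and do not give the error among its calls. Figures were drawn in Python 3.11.15 with pandas 2.3.3 and matplotlib 3.10.9.

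Named genes were, among those called, with no overlap of arrays and still called without MMS 72 h replicate 3, the 12 largest rises, the 12 largest falls and up to 4 per direction of each list, then the 6 largest differences each way between 72 h and 24 h among genes called at 72 h, and the 8 largest changes that lost their call without that replicate. Genes with clone or predicted names were counted and not named, and 1 gene that met the rule is not reported here. Members, lists and tests were chosen with earlier results of these data known. The number of arrays limits the precision, since intensities carry no read depth. Alternatives were other scalings, low-signal filters and probe set choices, fewer arrays, array weights, a replicate block and leaving out each 72 h array.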

Additional observations from a re-analysis of the deposited data

Results flagged for a closer look

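In 9 of 218 named genes, 1 control array at 72 h lay apart from the other 3, with the gap to its nearest neighbour, divided by the range of the 4 arrays, above the critical value of Dixon's test at 95%. Chance gives this in about 1 of 20 groups, a rate that does not say in which array. Most of the 9 genes had control replicate 1 apart. In the fit with array weights its weight was 0.38, against 1.32 to 2.19 in the other 72 h control arrays. The cause was not tested. In control replicate 1 the ratio was 0.833 for Tk1, 0.856 for Atg12, 0.967 for Fbln5, 0.903 for Fmod, 0.914 for Myh10, 0.946 for Hbegf, 0.856 for Hsd17b7 and 0.841 for Sfn, and in control replicate 2 it was 0.884 for Hspb8.

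The effect of MMS at 72 h differed from that at 24 h by a tested contrast (limma) in these 12 genes most among those called at 72 h. It was higher at 72 h for Actg2 by 3.87 on the log2 scale (adjusted p = 2.3e-15), Cnn1 by 3.58 (2.7e-15), Lrrc17 by 3.55 (6.9e-12), Cxcl14 by 3.55 (1.8e-11), Ctnnd2 by 3.40 (1.3e-13) and Gabrb1 by 3.24 (2.2e-13). The difference was -3.63 for Gsta4 (adjusted p = 5.3e-08), -3.01 for Blvrb (4.4e-11), -2.72 for Tnfrsf18 (1.8e-11), -2.64 for Nqo1 (1.0e-08), -2.58 for Cd68 (2.4e-10) and -2.32 for Procr (3.3e-13).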

How the results depend on the processing

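Leaving out each 72 h array in turn gave 1091 to 1492 genes higher and 1063 to 1528 lower, 94 to 104 and 170 to 203 at least 2-fold higher and lower, and 1549 to 1782 and 2057 to 2336 with the effect at 72 h above and below that at 24 h. Without MMS replicate 3, 5 NRF2 targets were higher and 6 ER genes lower. With array weights 2669 genes were higher, 2948 lower and 3582 had a lower effect at 72 h. With arrays centred on the median 2265 genes had a higher and 1525 a lower effect at 72 h than at 24 h, the opposite balance to that reported, and 56.0% of the calls were higher. With the mean of all probe sets 113 genes were at least 2-fold lower, and the log2 difference of Ppt1 reversed to 0.00 (adjusted p = 0.98). The causes were not tested.

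With the replicate number as a block among the 7 arrays of 72 h, 617 genes were higher and 836 lower, and 1363 of 2895 kept their call. The labels do not say whether a shared number marks a shared culture. Deviations of same-numbered arrays correlated at 0.19, 0.02 and 0.11, and those of differently numbered arrays at -0.16 to 0.12. MMS replicate 1 correlated best with control replicate 1. MMS replicate 2 did so with control replicate 3, at 0.08, and MMS replicate 3 with control replicate 2, at 0.12. These few correlations do not settle whether the arrays are paired, so the block is given as an alternative. Of 218 named genes, 181 kept their call under the block, 204 with only the 72 h arrays, and 208 to 216 when an array was left out. Most of them were named because they kept their call without MMS replicate 3 and had no overlap of arrays, so these counts are partly built in. Of all 2895 called genes, 2158 to 2511 kept their call when a 72 h array was left out.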

Other observations

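Among gap junction genes, Gjb2 and Gjc1 were lower and Gjb5 and Panx1 higher at 72 h, of 8 tested (Panx1 lost its call without MMS replicate 3). Of 50 tested lysosome and autophagy genes 9 were higher and 7 lower at 72 h, against 10.1% and 10.4% of all genes. Their median log2 difference was -0.01. At 24 h 29 were higher and 5 lower, against 25.0% and 19.4% of all genes.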
